A study of Mus musculus with 4 samples.

Results

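The ETS transcription factors examined here were 10 genes, *Erg*, *Fli1*, *Ets1*, *Ets2*, *Elk3*, *Etv6*, *Elf1*, *Elf2*, *Elf4* and *Gabpa*, chosen by name from the 12693 gene symbols of the deposited table, and all 10 were listed. ETS proteins share a winged-helix domain that binds DNA at a GGAA core, and the family includes both activators and repressors. In endothelial cells, *Erg* and *Fli1* are known for maintaining the expression of junctional and lineage genes, *Ets1* and *Ets2* respond to growth factor signalling through MAP kinases, and *Gabpa* is a widely expressed activator of genes for mitochondrial proteins. The data address whether transcripts of these factors differ in cells the study sorted as brain endothelium that lack *Foxq1*, a forkhead transcription factor.

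RNA was sequenced from C57BL/6 embryos at embryonic day 18 (E18), with 2 wild-type (WT) libraries and 2 libraries from the genotype FOXQ1fl/fl;Tie2-Cre, called *Foxq1* cKO. The labels name the tissue only as brain, and the study's methods describe cortical cells sorted for CD31, an endothelial surface protein, with littermates that carried no Cre as controls. The deposited record gives 2 ug of total RNA for library making and does not mention sorting, while the study names Smart-seq2, and the library method was not tested here. Tie2-Cre drives recombination in endothelial cells and, as is generally known, in much of the blood lineage. Values are normalized counts, that is, the reads counted on a gene divided by 1 size factor per library. If 1 step of the values is taken as 1 read, the libraries held 21466436 reads on listed genes in wild-type 1, 17901203 in wild-type 2, 15827166 in *Foxq1* cKO 1 and 16963866 in *Foxq1* cKO 2, and the mean per ETS gene ran from 165 reads for *Elf4* to 22100.0 for *Ets1*. Nothing in the labels says that the 2 libraries of a group came from separate embryos, so p-values measure the spread between these libraries, which may be technical. With 2 libraries in each group, an exact permutation p (two-sided) cannot fall below 0.333 for any gene.

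The targeted gene, *Foxq1*, had values of 353 and 297 in wild-type and of 5.44 and 32.6 in *Foxq1* cKO libraries, in normalized counts. Both *Foxq1* cKO libraries were far below both wild-type libraries, as their labels say, with a log2 fold change of -4.47 (95% confidence interval -7.01 to -1.92, adjusted p = 0.857 in limma). A gene on the opposite strand, *A530084C06Rik*, covers 66.1% of the *Foxq1* exon sequence, and no source used here states whether reads were counted by strand.

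Among the ETS genes, *Elf2* was higher in *Foxq1* cKO libraries with an unadjusted p below 0.05 in limma, and none of the 10 had a lower level at that threshold. Over all 12472 genes tested, those with a mean of at least 10 normalized counts, 2.17% were higher and 3.05% were lower at the same threshold. This balance turned when a wild-type library was left out, with 983 genes higher and 586 lower without wild-type 2. After Benjamini-Hochberg adjustment in limma, 0% of the genes tested and none of the ETS genes had an adjusted p under 0.05, against 651 genes without adjustment. The *Foxq1* cKO libraries were both below both wild-type libraries for 4 of the 10 genes (*Erg*, *Fli1*, *Ets2* and *Elf4*), where 18% of all genes tested showed that order. They were both above for 2 of the 10 (*Elf1* and *Elf2*), and 18% of all genes tested showed this order too. The groups overlapped for the other 4, *Ets1*, *Elk3*, *Etv6* and *Gabpa*. The median log2 fold change of the 10 genes was -0.057, beside 0.0086 over all genes tested. Under quantile normalization the groups of *Fli1* overlapped and the log2 fold change of *Elk3* turned to 0.037. In bulk libraries, fewer cells of a type and less RNA per cell cannot be told apart.

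**Figure D1:**
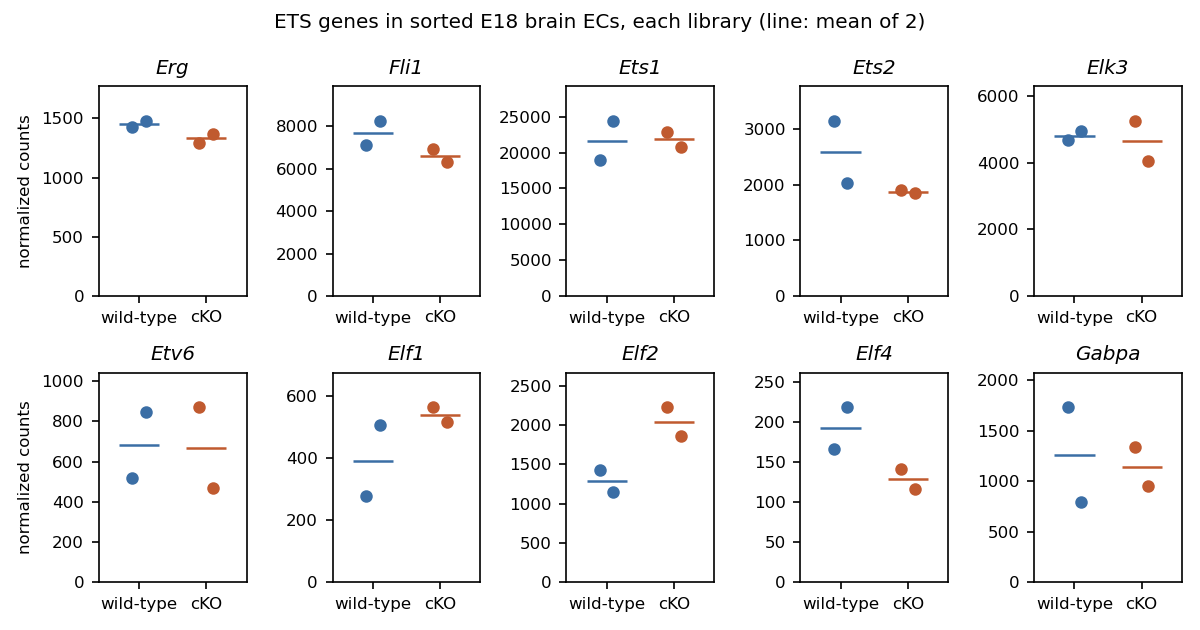
Normalized counts of each of the 10 ETS genes (vertical axis, from 0, a separate scale per gene) in the 2 wild-type libraries (blue) and the 2 *Foxq1* cKO libraries (orange), with a line at the mean of each group. The points of *Elf2* lie at 1427 and 1147 in wild-type and at 2222 and 1861 in *Foxq1* cKO, while those of *Gabpa* and *Etv6* are spread widely within both groups.

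*Erg* and *Fli1* form the subfamily most closely tied to endothelial identity. *Erg* had 1432 and 1478 normalized counts in wild-type libraries and 1292 and 1371 in *Foxq1* cKO libraries. The groups did not overlap, although the *Foxq1* cKO mean reached 91.5% of that in wild-type. For *Erg* the log2 fold change was -0.13 (95% confidence interval -0.71 to 0.45, adjusted p = 0.944 in limma). *Fli1*, which binds many of the same enhancers, had 7127 and 8256 normalized counts in wild-type libraries and 6930.4 and 6305 in *Foxq1* cKO libraries. The lowest wild-type value and the highest *Foxq1* cKO value were close to each other, without overlap. Its log2 fold change was -0.21 (95% confidence interval -0.59 to 0.16, adjusted p = 0.862 in limma), and its *Foxq1* cKO mean was 86.0% of the wild-type mean. It was -0.11 without wild-type 2 and -0.097 under quantile normalization. For *Erg* the group difference was larger than the difference between replicates in either group, while for *Fli1* it was about as large as that between the wild-type libraries (0.215 and 0.212 on the log2 scale).

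*Ets1* and *Ets2* encode activators that MAP kinases phosphorylate. *Ets1* had 18939.7 and 24408 normalized counts in wild-type libraries and 22849.7 and 20804 in *Foxq1* cKO libraries. Both *Foxq1* cKO values lay between the wild-type values. *Ets1* had a log2 fold change of 0.020, and its 95% confidence interval of -0.35 to 0.39 was the narrowest of the 10 genes. *Ets2* had 3151 and 2033 normalized counts in wild-type libraries and 1904 and 1848 in *Foxq1* cKO libraries. Wild-type 1 stood apart as the highest value, and wild-type 2 was close to the *Foxq1* cKO libraries. Between the groups, *Ets2* had a log2 fold change of -0.43 (95% confidence interval -1.09 to 0.23, adjusted p = 0.857 in limma), smaller in size than the log2 difference of 0.63 between the wild-type libraries. Without wild-type 1 the log2 fold change of *Ets2* was -0.12, and without wild-type 2 it was -0.75, with an unadjusted p of 0.0255 in limma.

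*Elk3*, a ternary complex factor, represses serum response genes until MAP kinase signalling converts it to an activator. It had 4682 and 4938 normalized counts in wild-type libraries and 5253 and 4058 in *Foxq1* cKO libraries. The *Foxq1* cKO values lay on either side of the wild-type pair, and the log2 fold change of *Elk3* was -0.059 (95% confidence interval -0.52 to 0.40). *Etv6* encodes a repressor needed for blood stem cells and vessel development. Its values were 521 and 847 normalized counts in wild-type libraries and 869 and 470.0 in *Foxq1* cKO libraries. Each group had a high and a low library, and the log2 fold change of *Etv6* was -0.056 with a 95% confidence interval of -1.19 to 1.08.

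The ELF subfamily held the largest differences among the 10 genes, in both directions. *Elf2*, whose transcript variants encode activating and repressing forms, had 1427 and 1147 normalized counts in wild-type libraries and 2222 and 1861 in *Foxq1* cKO libraries. Both *Foxq1* cKO libraries were above both wild-type libraries, with a *Foxq1* cKO mean at 159% of that in wild-type. *Elf2* had a log2 fold change of 0.67 (95% confidence interval 0.054 to 1.28, unadjusted p = 0.0374 and adjusted p = 0.857 in limma), and it was the only interval of the 10 that did not include 0. When the trend was left out of eBayes in limma, *Elf2* had an unadjusted p of 0.0995. It was 0.126 without wild-type 2, 0.200 without *Foxq1* cKO 1 and 0.0791 without *Foxq1* cKO 2, so the call at an unadjusted p under 0.05 was lost in each of these fits. Leaving out any 1 library gave a log2 fold change of *Elf2* between 0.51 and 0.82.

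*Elf1*, a relative of *Elf2* known from blood and endothelial cells, had 278 and 504 normalized counts in wild-type libraries and 562 and 516 in *Foxq1* cKO libraries. Wild-type 1 was the low library, and wild-type 2 was just under the *Foxq1* cKO pair. *Elf1* had a log2 fold change of 0.52 (95% confidence interval -0.62 to 1.67, adjusted p = 0.885 in limma), and it was 0.093 without wild-type 1 and 0.95 without wild-type 2. *Elf4*, known for a role in lymphocyte quiescence and innate immunity, had 167 and 218 normalized counts in wild-type libraries and 142 and 116 in *Foxq1* cKO libraries. All 4 values were low, at between 114 and 219 reads per library, and the groups did not overlap. The log2 fold change of *Elf4* was -0.57, with a 95% confidence interval of -2.12 to 0.98 that was the widest of the 10. It ran from -0.76 without wild-type 1 to -0.38 without wild-type 2. The opposite signs of *Elf4* and its relatives *Elf1* and *Elf2* were seen under TMM scaling and quantile normalization too, and the difference between these genes was not tested.

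*Gabpa* encodes the DNA-binding subunit of GABP, which acts with a partner subunit encoded by *Gabpb1* or *Gabpb2*. It had 1731 and 794 normalized counts in wild-type libraries and 1339 and 949 in *Foxq1* cKO libraries. The wild-type libraries held both the highest and the lowest of the 4 values, and they differed by 1.12 on the log2 scale. The log2 fold change of *Gabpa* between the groups was -0.056 (95% confidence interval -1.12 to 1.01), and it ran from -0.62 without wild-type 2 to 0.51 without wild-type 1. In all, the group difference was larger than both differences between replicates for 4 of the 10 genes (*Erg*, *Fli1*, *Elf2* and *Elf4*, with *Fli1* by a narrow margin) and not for the other 6, where 22.7% of all genes tested showed this.

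**Figure D2:**
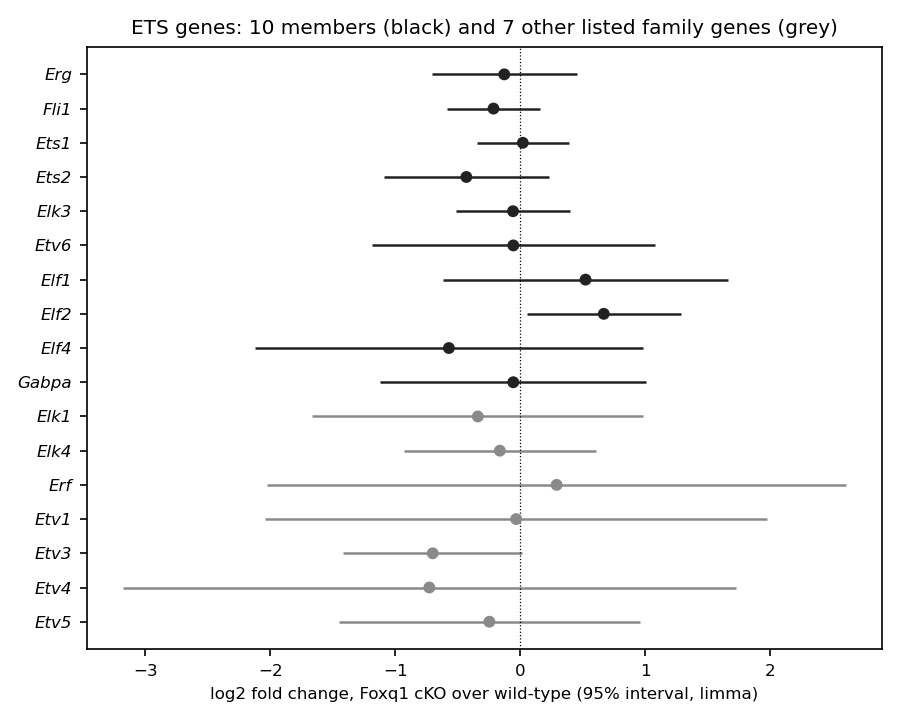
Log2 fold change of *Foxq1* cKO over wild-type (horizontal axis) with its 95% confidence interval from limma, for the 10 ETS genes (black) and 7 other listed genes of the family (grey). Every interval but that of *Elf2* (0.054 to 1.28) includes 0.

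Levels of different genes were compared after dividing by the length of the merged exons, as normalized counts per kilobase. On this scale *Ets1* was highest, with a mean of 2566 per kilobase over the 4 libraries (SD 281), and *Fli1* followed at 2052 (SD 233). *Ets1* was above 97.9% and *Fli1* above 97.3% of the 12457 genes tested that had a length. *Elk3* came next at 1040.1 per kilobase (SD 111), followed by *Erg* at 402 (SD 23.2) and *Ets2* at 386 (SD 107). *Gabpa* (212, SD 73.8), *Elf2* (174, SD 49.5) and *Etv6* (113, SD 35.2) formed a middle group, close to or above the median of 107 per kilobase over all genes. *Elf1* stood at 69.0 per kilobase (SD 18.9) and *Elf4* at 26.1 (SD 7.11), the lowest of the 10.

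Some neighbours in this order were not separated over the 4 libraries. *Ets1* was above *Fli1* in 4 of 4 libraries, though their ranges per kilobase overlapped. The ranges of *Fli1* and *Elk3*, and those of *Elk3* and *Erg*, did not overlap. *Erg* was above *Ets2* in 3 of 4 libraries, the exception being wild-type 1, and *Gabpa* was above *Elf2* in 3 of 4. *Elf2* was above *Etv6* in 3 of 4 libraries as well. Per kilobase, *Ets1* held between 32.5% and 38.3% of the summed level of the 10 genes in each library, and *Fli1* held between 27.4% and 31.1%. The sum itself was 6875 and 7623 per kilobase in the wild-type libraries and 7260.0 and 6406 in the *Foxq1* cKO libraries, so the groups overlapped. With the longest coding transcript as the length, a choice made after seeing the data, *Ets2* passed *Erg* and *Elf2* passed *Gabpa*, while the other 6 genes kept their places.

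**Figure D3:**
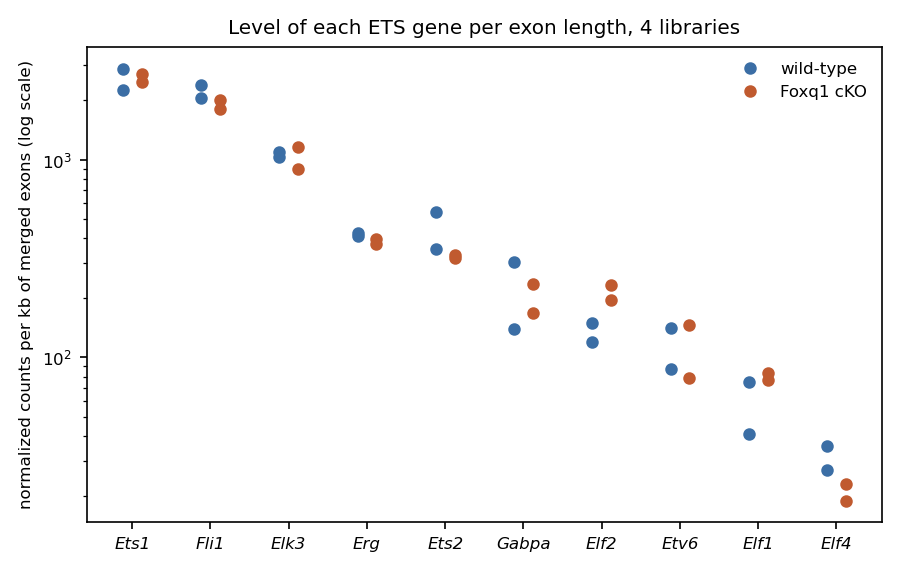
Normalized counts per kilobase of merged exons (vertical axis, log scale) for the 10 ETS genes, ordered by their mean, in the 2 wild-type (blue) and 2 *Foxq1* cKO libraries (orange). The means fall from 2566 for *Ets1* to 26.1 for *Elf4*, and *Ets1*, *Fli1*, *Elk3*, *Elf1* and *Elf4* keep their place in the order in all 4 libraries.

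Ratios within a library do not depend on the scaling between libraries. Per kilobase, the log2 ratio of *Erg* to *Fli1* was -2.31 and -2.47 in wild-type libraries and -2.41 and -2.19 in *Foxq1* cKO libraries. *Fli1* was therefore above *Erg* by a similar margin in every library, and the groups overlapped. The log2 ratio of *Ets1* to *Ets2* was 2.04 and 3.03 in wild-type libraries and 3.03 and 2.94 in *Foxq1* cKO libraries, and wild-type 1 alone stood apart. The log2 ratio of *Gabpa* to *Gabpb1* was 2.10 and -0.047 in wild-type libraries and 1.21 and 0.31 in *Foxq1* cKO libraries. This last ratio varied more between the wild-type libraries than between the groups.

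Of 17 other family genes, 7 were listed and tested, and no value was used here for the other 10, among them *Spi1* and *Etv2*. None of the 7 had an unadjusted p under 0.05 in limma (2.17% of all genes tested were higher and 3.05% lower). Their median log2 fold change was -0.25, with 6 values below 0 (49.3% of all genes tested were below 0). Leaving out 1 library gave medians from -0.56 to -0.094. *Etv3*, which encodes a repressor, had 1512 and 1205 normalized counts in wild-type libraries and 917 and 752 in *Foxq1* cKO libraries. It was the only one of the 7 whose groups did not overlap (18% of all genes tested in each direction), with a log2 fold change of -0.70 (95% confidence interval -1.42 to 0.016). In limma, *Etv3* had an unadjusted p of 0.0488 without wild-type 2 and *Etv5* of 0.0402 without wild-type 1. The ternary complex factors *Elk1* (log2 fold change -0.34) and *Elk4* (-0.16) overlapped between the groups, as did the repressor *Erf* (0.29). The PEA3 subfamily, which responds to fibroblast growth factor signalling, had overlapping groups as well, with log2 fold changes of -0.033 for *Etv1*, -0.73 for *Etv4* and -0.25 for *Etv5*. *Etv4* had 222 and 176 normalized counts in wild-type libraries and 308 and 45.8 in *Foxq1* cKO libraries, so that its *Foxq1* cKO libraries lay on either side of the wild-type pair.

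Partners and regulators of ETS proteins made up a list of 25 genes with values, after 2 older names of listed genes were set aside. None of the 25 had an unadjusted p under 0.05 in limma (2.17% of all genes tested were higher and 3.05% lower). Their median log2 fold change was -0.063, and it ran from -0.12 to 0.020 when 1 library was left out. The kinases that activate the ERK MAP kinases upstream of *Ets1*, *Ets2* and *Elk3* lay in opposite directions. *Map2k1* had 1540.3 and 1037 normalized counts in wild-type libraries and 1901 and 2016 in *Foxq1* cKO libraries, with a log2 fold change of 0.63 (95% confidence interval -0.052 to 1.31). *Map2k2* had 3689 and 3217 in wild-type libraries and 2598 and 2618 in *Foxq1* cKO libraries, with a log2 fold change of -0.40 (95% confidence interval -0.86 to 0.053). The groups of both genes did not overlap, and neither interval excluded 0. Of the 25 genes, 3 were higher and 3 lower without overlap (18% of all genes tested in each direction). *Map2k1* ran from 0.35 without wild-type 2 to 0.92 without wild-type 1, where its unadjusted p in limma was 0.0181. *Runx1*, a partner of ETS factors in blood formation, had 37.1 and 152 normalized counts in wild-type libraries and 1.09 and 39.7 in *Foxq1* cKO libraries, and the low value of *Foxq1* cKO 1 was 1 step. Its log2 fold change of -3.05 (unadjusted p = 0.113 in limma) varied with the library left out. It was -0.91 without *Foxq1* cKO 1 (0.548) and -2.05 without wild-type 2 (0.338), against -5.19 without *Foxq1* cKO 2 (0.0262), and the replicate block gave a p of 0.0417.

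Of 27 endothelial genes known as ETS targets, 2 were lower and 0 were higher at an unadjusted p under 0.05 in limma (3.05% and 2.17% of all genes tested). The groups did not overlap for 8 lower and 2 higher genes (18% of all genes in each direction), and the median log2 fold change was -0.12. This median ran from -0.18 to -0.066 when 1 library was left out. Part of this list also serves as endothelial markers below. *Vwf*, which encodes von Willebrand factor, had 22583 and 18306 normalized counts in wild-type libraries and 7114 and 5398 in *Foxq1* cKO libraries. Its log2 fold change was -1.71 (95% confidence interval -2.17 to -1.26, adjusted p = 0.857 in limma). The log2 fold changes of *Erg* and *Fli1* were -0.13 and -0.21, and a link between them and *Vwf* was not tested. *Flt1*, a VEGF receptor, had a log2 fold change of -0.48 (95% confidence interval -0.96 to -0.011). Its unadjusted p in limma was 0.0463, and it was 0.0914 under quantile normalization and 0.222 without the trend. The call was also lost without wild-type 1 (0.239), without *Foxq1* cKO 1 (0.110) and without *Foxq1* cKO 2 (0.166), and it was kept without wild-type 2 (0.00383). The log2 fold change of *Flt1* was -0.22 without wild-type 1 and -0.74 without wild-type 2. *Emcn*, a sialomucin, had a log2 fold change of -0.39 with an interval that included 0. Under quantile normalization the median of these 27 genes was 0. *Cldn5*, the most abundant of them, had a log2 fold change of 0 there. That setting gives genes of equal rank in all libraries equal values, so an exact 0 can come from the method.

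Serum response genes that ELK factors regulate were lower in 7 of 9 cases by the sign of the log2 fold change (49.3% of all genes tested), and 1 of the 9 was lower at an unadjusted p under 0.05 in limma (3.05% of all genes). Their median was -0.22, from -0.38 to -0.089 when 1 library was left out. This gene was *Egr1*, with 12483 and 11349 normalized counts in wild-type libraries and 8486 and 8734 in *Foxq1* cKO libraries and a log2 fold change of -0.47 (95% confidence interval -0.78 to -0.15). The unadjusted p of *Egr1* in limma was 0.0112, and it was 0.168 without the trend, 0.0561 without wild-type 1 and 0.0583 without *Foxq1* cKO 1. *Fos* had a log2 fold change of -0.30 (95% confidence interval -0.63 to 0.029), and *Fosb* overlapped between the groups (-0.22). *Fos* was at -0.16 without wild-type 1 and at -0.44 without wild-type 2, where its unadjusted p in limma was 0.0231. The log2 fold change of *Elk3* was -0.059 in the same libraries, and a link between *Elk3* and these genes was not tested.

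Mitochondrial genes known as GABP targets were higher by sign in 12 of 17 cases (50.7% of all genes tested), with a median log2 fold change of 0.23. Leaving out 1 library gave medians from 0.12 to 0.41. None of the 17 had an unadjusted p under 0.05 in limma (2.17% of all genes tested were higher and 3.05% lower). The groups did not overlap for 9 of them, all higher (18% of all genes tested were higher without overlap). *Cox5b*, a subunit of cytochrome c oxidase, had 182 and 179 normalized counts in wild-type libraries and 519 and 326 in *Foxq1* cKO libraries, with a log2 fold change of 1.18 (95% confidence interval -0.13 to 2.49). Without the trend in limma the unadjusted p of *Cox5b* was 0.0342, against 0.0692 with it. *Cox8a* (log2 fold change 0.36) and *Cox6c* (0.40), subunits of the same complex, were also higher in both *Foxq1* cKO libraries. *Cox6c* ran from 0.24 to 0.55 when 1 library was left out. The 17 genes summed to 31432 and 30112 normalized counts in wild-type libraries and 29861 and 33417 in *Foxq1* cKO libraries, so the sums overlapped. *Gabpa* itself had overlapping groups, with its highest value in wild-type 1 and its lowest in wild-type 2. A link between *Gabpa* and these genes was not tested.

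Marker genes were used to check the endothelial identity given in the study's methods. All 12 endothelial markers were listed, with *Cldn5* the most abundant, at 151977 and 136639 normalized counts in wild-type libraries and 126706 and 134826 in *Foxq1* cKO libraries. Their sum was 443323 and 414327 normalized counts in wild-type libraries and 364510.0 and 409156 in *Foxq1* cKO libraries, and 2 of the 12, *Mfsd2a* (log2 fold change -0.31) and *Flt1*, were lower at an unadjusted p under 0.05 in limma (3.05% of all genes tested). The call of *Mfsd2a* was lost under quantile normalization (unadjusted p = 0.0751 in limma), without the trend (0.325) and when wild-type 1, *Foxq1* cKO 1 or *Foxq1* cKO 2 was left out. In all, 10 of the 12 markers had a negative log2 fold change (49.3% of all genes tested). Without overlap, 7 were lower and 1 was higher (18% of all genes tested in each direction), and the median was -0.20. This median was -0.091 under quantile normalization and ran from -0.30 to -0.094 when 1 library was left out. The fits in which *Flt1* lost its call are given with the ETS targets. Apart from *Slc2a1*, *Mfsd2a* and *Slco1c1*, these markers are all in the list of endothelial ETS targets too. The results of the lists are therefore not independent, and a shift in targets cannot be told apart from a shift in endothelial content. Of 10 pericyte and smooth muscle markers 7 were listed, without *Acta2*, *Myh11* and *Tagln*. Their most abundant gene, *Rgs5*, had between 89164 and 93044 normalized counts, and their sum lay between 142489 and 154847 in the 4 libraries. Transcripts that mark pericytes or smooth muscle were thus present beside those that mark endothelial cells. Which cells the ETS values came from was not tested. The groups of *Rgs5* (log2 fold change 0.015), *Cspg4* (-0.13), *Kcnj8* (-0.092) and *Abcc9* (-0.059) overlapped. Leaving out 1 library gave values of *Cspg4* from -0.23 to -0.037.

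Of 12 microglia and macrophage markers 11 were listed, and *Spi1*, an ETS gene that defines these cells, was the one without a value used here. Their sum was 9913 and 11531 normalized counts in wild-type libraries and 7486 and 8496 in *Foxq1* cKO libraries. *Csf1r*, the most abundant, was lower (log2 fold change -0.83, 95% confidence interval -1.39 to -0.27), with *C1qb* at -0.40 and *C1qc* at 1.45. The value of *C1qc* ran from 0.48 to 2.42 when 1 library was left out. The call of *Csf1r* at an unadjusted p under 0.05 in limma was lost without the trend (0.0575), without wild-type 1 (0.0562) and without *Foxq1* cKO 2 (0.0643). Of the 11 markers 6 were negative (49.3% of all genes tested), and 1, *Csf1r*, was lower at that threshold (3.05% of all genes tested). Without overlap, 3 were lower and 2 higher (18% of all genes tested in each direction), and the highest log2 fold change was 2.38. The median was -0.30, from -0.42 to -0.047 when 1 library was left out. *Elf4* and *Ets2*, which macrophages also express, had both *Foxq1* cKO values below both wild-type values in the same libraries. *Elf1*, known from blood cells as well, had both *Foxq1* cKO values above both wild-type values. Without wild-type 1 the log2 fold changes were -0.12 for *Ets2* and 0.093 for *Elf1*. The part of these markers and of all other marker lists in the result was not tested. Neuronal markers (9 of 11 listed, without *Tbr1* and *Gad1*) summed to between 4361 and 6578 normalized counts. They were led by *Map2* (log2 fold change -0.32), with *Snap25* at 2.41 and *Stmn2* at -0.42. Of the 9 markers 7 were negative (49.3% of all genes tested). When 1 library was left out, *Map2* ran from -0.44 to -0.20 and *Stmn2* from -0.83 to -0.016. The neuronal median, -0.32, ran from -0.67 to 0.11 in the same fits. Glial and progenitor markers (8 of 10, without *Olig2* and *Sox10*) summed to 18569 and 19068 in wild-type libraries and 15640 and 17293 in *Foxq1* cKO libraries, led by *Slc1a3* (-0.32), with *Aldoc* at -0.48 and *Hes5* at -0.47. Of these 8 markers 6 were negative and 2 positive (from -1.29 to 0.22), against 49.3% and 50.7% of all genes tested. Without overlap, 5 were lower and 0 higher (18% of all genes tested in each direction). Their median was -0.40, from -0.44 to -0.28 when 1 library was left out, and *Hes5* ran from -0.67 to -0.26. Platelet markers (4 of 6, without *Gp1ba* and *Gp1bb*), in whose cells *Fli1*, *Erg* and *Etv6* are also active, summed to between 257 and 861 normalized counts, led by *Itga2b*, with log2 fold changes of 0.42 for *Itga2b*, 1.99 for *Gp9*, -1.25 for *Pf4* and -0.78 for *Ppbp*. *Pf4* ran from -2.44 to -0.065, *Gp9* from 1.14 to 2.83 and *Ppbp* from -1.09 to -0.47 when 1 library was left out. Erythroid markers (6 of 8, without *Hbb-b1* and *Hbb-b2*) summed to between 15683 and 20673. They were led by *Hba-a1* (-0.043), with *Alas2* at -0.34, *Hba-a2* at 0.55 and *Hbb-bs* at 0.21. *Alas2* ran from -0.55 to -0.12 and *Hba-a2* from 0.28 to 0.82 when 1 library was left out.

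The positions of the ETS genes were taken from the GRCm38 assembly by gene identifier. *Fli1* (chr9:32422204-32542861, minus strand) and *Ets1* (chr9:32636221-32757820, plus strand) lie 93359 bp apart. *Erg* (chr16:95359169-95586593, minus strand) and *Ets2* (chr16:95702075-95721051, plus strand) lie 115481 bp apart in the same arrangement. Each pair thus joins a gene of the ERG subfamily and a gene of the ETS subfamily, transcribed away from each other. Within the pair on chromosome 16 both genes were lower in both *Foxq1* cKO libraries than in both wild-type libraries. In the pair on chromosome 9 only *Fli1* was, and 18% of all genes tested showed this order. Whether such neighbours change together was not tested. *Gabpa* lies on chromosome 16 as well (chr16:84834925-84863779, plus strand), 10495389 bp from *Erg*. *Elf2* occupies chr3:51252720-51340663 (minus strand), *Elf1* chr14:79481194-79582494 (plus strand) and *Elf4* chrX:48411046-48463132 (minus strand). *Elk3* lies at chr10:93247414-93311135 (minus strand) and *Etv6* at chr6:134035700-134270158 (plus strand).

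Some ETS genes share exon sequence with others, which leaves the assignment of those reads uncertain. *Gabpa* overlaps *Atp5j* on the opposite strand over 397 bp of exon, which is 6.98% of its exon length. *Elk3* overlaps *Cdk17* over 316 bp and *Elf1* overlaps *Wbp4* over 327 bp, both on opposite strands. *Elf2* overlaps *4930577N17Rik* on the opposite strand over 371 bp, and *Etv6* overlaps the antisense gene *Gm17089* over 135 bp. *Elf1* also matches a transcript of *Slc30a7* over 1183 bp at 93.4% identity and a processed pseudogene, *Gm6649*, over 1180 bp. No exon overlap with another gene was found for *Erg*, *Fli1*, *Ets1*, *Ets2* or *Elf4*.

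RefSeq promoter windows (GRCm38.p6) were found for 8 of the 10 genes, all but *Fli1* and *Ets1*. The 250 bases before each start were searched for the ETS core GGAA, for the longer CGGAAG, which contains it, and for GTTTC, a sequence taken from the authors' account of FOXQ1, each on both strands. In GTTTCC the GTTTC overlaps TTCC, the reverse complement of GGAA. Over 32841 windows of all genes, 93.5% held GGAA, 13.6% held CGGAAG and 39.7% held GTTTC. Among 13 windows of the 8 genes, CGGAAG was found at *Gabpa* (1 match) and at 1 window of *Elf2* (2 matches). GTTTC was found at windows of *Elf1*, *Elf4*, *Erg* and *Etv6*, and not at those of *Elf2*, *Elk3*, *Ets2* or *Gabpa*. The windows at the outermost starts of *Elf4* and *Erg*, genes that were both lower in both *Foxq1* cKO libraries, are printed because no window of the 13 held more GGAA cores than the first or fewer than the second. *Elf2* also had a window with 6 cores and *Elf1* a window with 0. This *Elf2* window, which also held CGGAAG, and the *Gabpa* window lie in annotated exons. The other windows of *Erg* held 2 GGAA cores with 2 GTTTC (chr16:95459349-95459598) and 4 GGAA cores with 0 GTTTC (chr16:95530366-95530615). The other window of *Elf4* held 2 GGAA cores and 1 GTTTC. The *Elf4* window (chrX:48463133-48463382, minus strand) held 6 GGAA cores and 1 GTTTC, and the *Erg* window (chr16:95586594-95586843, minus strand) held 0 of each. Capitals mark GGAA, GTTTC and their reverse complements, and neither window overlaps an annotated exon.
Elf4: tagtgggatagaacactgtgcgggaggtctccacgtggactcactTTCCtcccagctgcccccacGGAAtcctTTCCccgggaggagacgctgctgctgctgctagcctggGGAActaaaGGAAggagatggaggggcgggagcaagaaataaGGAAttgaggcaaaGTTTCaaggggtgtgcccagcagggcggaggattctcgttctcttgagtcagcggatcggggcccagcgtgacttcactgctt
Erg: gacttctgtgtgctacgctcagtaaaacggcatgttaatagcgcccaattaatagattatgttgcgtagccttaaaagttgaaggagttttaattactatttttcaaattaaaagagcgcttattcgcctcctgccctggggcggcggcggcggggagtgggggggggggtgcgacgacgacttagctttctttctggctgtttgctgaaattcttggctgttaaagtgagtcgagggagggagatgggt
A match of letters is a description of the sequence and says nothing of binding, and the absence of a match holds for these windows only.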

How the data were processed

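RNA-seq of 2 wild-type and 2 *Foxq1* cKO libraries was analysed, with groups and replicate numbers taken from the sample titles. The authors deposited a signal per gene, here called normalized counts: in each library 100% of the values were whole multiples of 1 step within 0.001 steps, and the inverse of the steps equalled median-of-ratios size factors. The submitters' processing notes name Bowtie2 2.2.3, TopHat2 2.0.12, HTSeq 0.6.0 and the build mm9. The annotation, the normalizing tool and the use of strand are not given in the sources used here. Identical repeated lines were reduced to 1 per gene symbol. With 1 step taken as 1 read, every listed gene had at least 1 read in each library and at least 21 in total, so a gene lost completely in 1 library has no value.

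log2(value + 1), which understates changes of low genes, was fitted with limma 3.58.1 (lmFit, eBayes with trend) in R 4.3.3. The 12472 genes tested had means of 10 or more, with Benjamini-Hochberg adjustment over all of them. The code was tested on simulated data first. Exon lengths and positions came from GENCODE M21 (GRCm38), matched by identifier for 12678 of 12693 genes, and near copies (at least 90% identity over 200 bp) from BLAST 2.17.0. Tables were made with Python 3.11.15 and pandas 2.3.3, and figures with matplotlib 3.10.9. The rule for named genes took the 10 ETS genes and *Foxq1*, every listed gene of the other ETS family, the 3 genes with the smallest p of each other list and the most abundant gene of each marker list. *Gabpb1* and the overlapping genes were named for the ratio and the exon overlaps. The ETS genes and the lists were chosen with earlier results of these data known. The search for CGGAAG was added after the data were seen. Alternatives were other pseudocounts (0.1 and 5), filters (none, or a mean of at least 50) and scalings, no trend, a replicate block and each library left out in turn. Protein sequences were not analysed here.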

Additional observations from a re-analysis of the deposited data

How the results depend on the processing

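With all 4 libraries kept, 8 alternatives gave between 592 and 693 genes at an unadjusted p under 0.05, against 651, and 0 at an adjusted p under 0.05 in limma. For the 10 ETS genes, 78 of the 80 values over these alternatives kept their direction and their side of an unadjusted p of 0.05. The exceptions were *Elf2* without the eBayes trend, where 0 of the 10 ETS genes passed, and *Elk3*, at 0.037 under quantile normalization. That setting also turned *Abcc9* to 0.032, *Hba-a1* to 0.082 and *Rgs5* to -0.066. The causes were not tested. With the longest coding transcript as the length, chosen after seeing the data, the share of *Ets1* in the summed level was 45.8% instead of 36.4%.

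The replicate numbers were the only hint of a pairing, and same-numbered libraries did not deviate together (Pearson r across 12472 genes 0.032). The replicate block gave 693 genes at an unadjusted p under 0.05 and changed no call among the ETS genes, while *Runx1* passed with it.

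Leaving out each library in turn leaves 1 library in a group, which is assumed to vary like the others. The genes at an unadjusted p under 0.05 then numbered between 276 (without *Foxq1* cKO 1) and 1569 (without wild-type 2). Higher genes were the majority without wild-type 1 (510 to 316) and without wild-type 2 (983 to 586), and the minority without *Foxq1* cKO 1 (66 to 210) and without *Foxq1* cKO 2 (106 to 375). The ETS genes at an unadjusted p under 0.05 numbered between 0 and 1, and the ETS median lay between -0.26 and 0.11. Ranges that changed sign were -0.16 to 0.20 for *Ets1*, -0.24 to 0.13 for *Elk3*, -0.50 to 0.39 for *Etv6*, -0.62 to 0.51 for *Gabpa*, -0.76 to 0.076 for *Elk1*, -0.48 to 0.15 for *Elk4*, -0.56 to 1.14 for *Erf*, -0.93 to 0.87 for *Etv1*, -2.09 to 0.63 for *Etv4* and -0.93 to 0.43 for *Etv5*. Outside the family they were -0.31 to 0.19 for *Abcc9*, -0.53 to 0.086 for *Fosb*, -0.24 to 0.16 for *Hba-a1*, -0.10 to 0.52 for *Hbb-bs*, -0.76 to 1.60 for *Itga2b*, -0.21 to 0.022 for *Kcnj8*, -0.015 to 0.045 for *Rgs5* and -0.67 to 5.49 for *Snap25*. Without wild-type 1, *C1qc* and *Snap25* passed an unadjusted p of 0.05 in limma, as did *Itga2b* without wild-type 2 and, with all libraries but no trend, *Gp9*.

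DESeq2 and edgeR were not run. Whole steps were recovered, but a check of units did not accept wild-type 2, whose size factor is close to 1, as whole reads, so the values were tested as a normalized signal. Standard errors of the log2 fold change had a median of 0.26 over the ETS genes and 0.50 over all genes tested, which limits what 2 libraries a group can show.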
